A study of Ovis aries with 12 samples.

Results

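Cell division genes were followed through corpora lutea of sheep as a list of 48 genes, 14 of DNA replication and 34 of the mitotic spindle, its checkpoint and the cyclins. A probe set of the array was taken as a member where the platform annotation gave it a single gene symbol and that symbol was on the list. Of the 48 genes, 37 were measured in this way, out of 9155 named genes on the array. They were covered by 51 of the 24016 probe sets tested. The replication side held 11 of its 14 genes with 16 probe sets, and the mitotic and cyclin side held 26 of its 34 genes with 35 probe sets. MCM2, GINS1, GINS2, MKI67, TOP2A, TTK, KIF11, CENPE, PRC1, FOXM1 and DLGAP5 had no probe set under that symbol and were not analysed here. A gene with several probe sets is represented below by the brightest, the one with the highest mean over the 12 arrays, unless another is named.

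The corpus luteum forms in the ovary from the ovulated follicle and secretes progesterone. Glands from 12 ewes were used, 3 in each of 4 groups, with 1 array per ewe: pregnant ewes, mated with a fertile ram, at day 12 or day 14, and non-pregnant ewes, which were not mated and whose heat was detected with a vasectomized ram, at day 12 or day 14 of the cycle. Sheep RNA was hybridised to an Affymetrix bovine array, and sequence mismatch between the species can lower the signal of single probe sets, so levels are compared only within a probe set. All levels are deposited log2 values, on which a difference of 1 is a doubling. The titles name day 12 and pregnancy for all 12 arrays, which goes against the source label in 9 of them, and the source label set the groups. The labels describe the arrays in 2 wordings, which split them into batch A with 4 arrays and batch B with 8. Batch A held day 12 pregnant replicate 3, day 14 pregnant replicate 3 and day 14 non-pregnant replicates 2 and 3, and no day 12 non-pregnant array.

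Before a cell divides it copies its DNA, which needs the MCM helicase, the sliding clamp PCNA and enzymes that supply nucleotides. It then enters mitosis under CDK1 and its cyclins, builds a spindle from microtubules, kinesins and kinetochores, and separates its chromosomes when the anaphase-promoting complex is released from the spindle checkpoint. The mitotic genes of this list are transcribed mainly late in the cell cycle, so in a tissue their RNA is known as a marker of dividing cells. In the growing corpus luteum most dividing cells are known to be endothelial, and in a cycle without pregnancy the gland regresses, while a conceptus signal preserves it.

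Across the 4 groups, cell division genes had their lowest values in the non-pregnant glands of day 14. That group had the lowest mean of the 4 for 35 of 37 members, 10 of 11 replication genes and 25 of 26 mitotic and cyclin genes. The same count was not made over all named genes. CDT1 and CENPA were the exceptions on their brightest probe sets. On a dimmer CDT1 probe set the day 14 non-pregnant values, 4.98, 5.17 and 5.04, lay below those of all other arrays. For 12 members all 3 day 14 non-pregnant arrays were the 3 lowest of 12: MCM3, RRM2 and TYMS among the replication genes, and CCNB2, CDC20, BUB1B, PLK1, AURKB, TPX2, KIF20A, KIF23 and ASPM among the mitotic and cyclin genes. The same order held for 407 of all 9155 named genes, or 4.45%. In bulk tissue, fewer dividing cells and less RNA per dividing cell cannot be told apart.

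**Figure D1:**
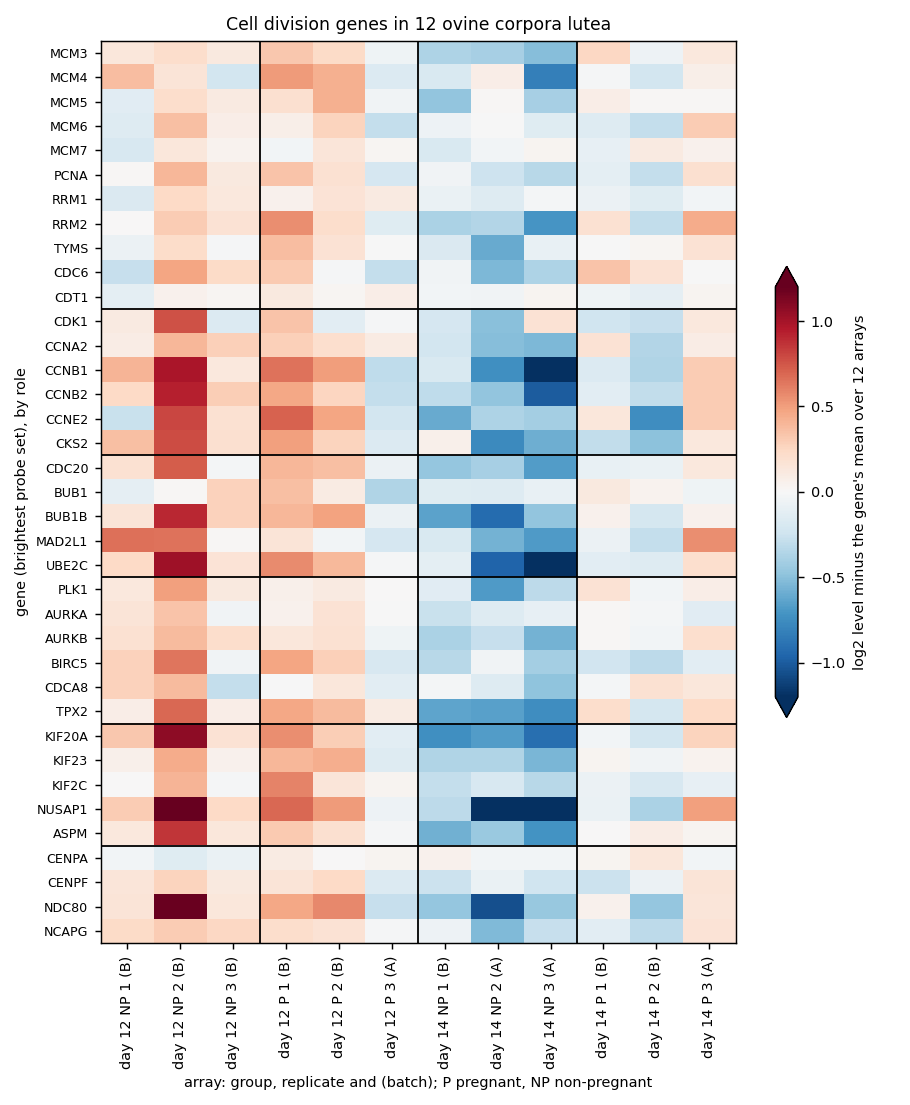
Heat map of the 37 measured cell division genes (rows, grouped by role from DNA replication at the top to kinetochore and chromosome proteins at the bottom) in the 12 arrays (columns, with batch in parentheses). Colour is the log2 level minus the gene's mean over the 12 arrays, with the scale ending at 1.2 in each direction; day 12 non-pregnant replicate 2 was the highest array for 26 of the 37 genes, and day 14 non-pregnant replicate 3 the lowest for 19.

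The mitotic and cyclin genes spread further over the arrays than the replication genes. For each array the deviation of each gene from its own mean was taken and the median over the genes computed. For mitotic and cyclin genes this median deviation was 0.16, 0.67 and 0.13 in day 12 non-pregnant replicates 1 to 3, 0.40, 0.25 and -0.070 in the day 12 pregnant, -0.28, -0.49 and -0.51 in the day 14 non-pregnant, and -0.029, -0.21 and 0.13 in the day 14 pregnant. The 3 day 14 non-pregnant arrays were thus below the other 9, and day 12 non-pregnant replicate 2 stood above the rest. The replication genes had median deviations of -0.12, 0.22 and 0.11, then 0.31, 0.18 and -0.053, then -0.17, -0.16 and -0.34, and last -0.011, -0.11 and 0.067 in the same order of groups and replicates. Here too the day 14 non-pregnant arrays were the 3 lowest. Replicates of a group differed by a median SD of 0.15 to 0.24 over the replication genes and of 0.19 to 0.35 over the mitotic and cyclin genes, the largest of these in the day 12 non-pregnant group.

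**Figure D2:**
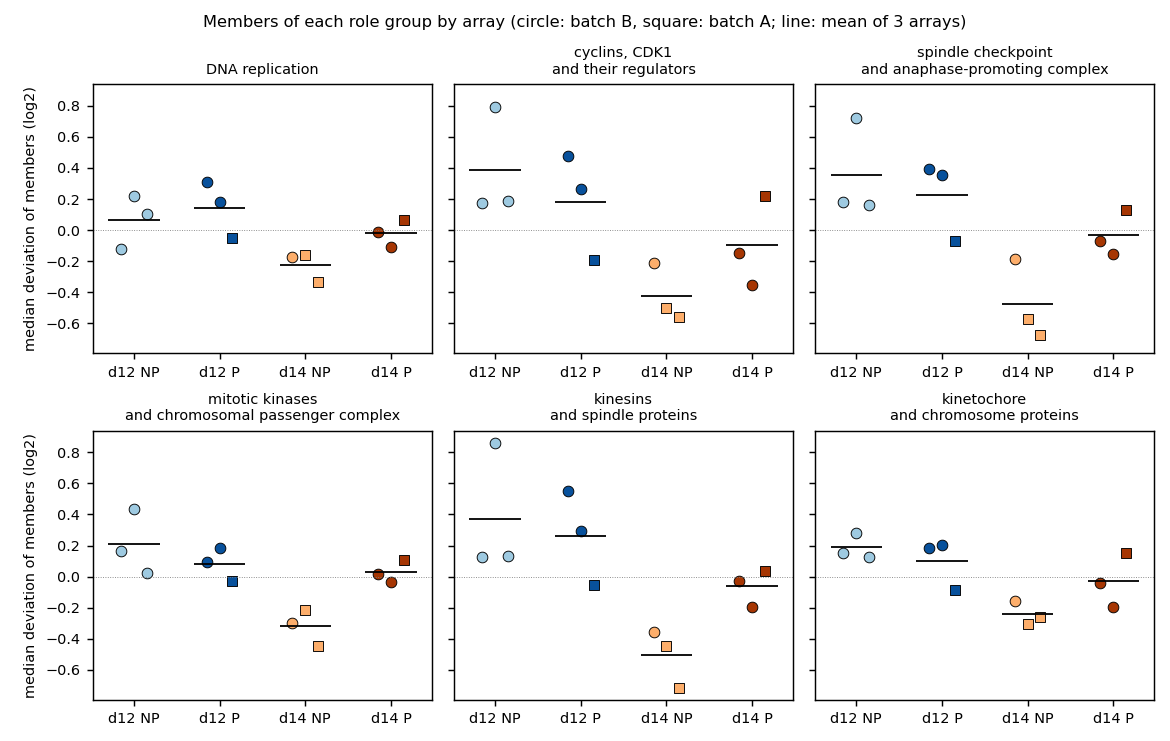
Median deviation of the members of each role group from their own means (log2, y axis) in each array, by group (x axis; d12 and d14 are the days, P pregnant, NP non-pregnant), with squares for batch A, circles for batch B and a line at the mean of 3 arrays. In the kinesin and spindle panel the day 14 non-pregnant arrays were at -0.36, -0.45 and -0.71, and in the replication panel at -0.17, -0.16 and -0.34.

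The first comparison asked how cell division genes differed between pregnant and non-pregnant ewes at day 14. All but 1 of the 37 members had a higher estimate in pregnancy, with a median difference of 0.36, against 5093 of all 9155 named genes and a median of 0.026. The median was 0.18 over the replication genes, 10 of 11 of which were above 0, and 0.38 over the mitotic and cyclin genes, all 26 of which were above 0. Differences are those of limma, fitted to all 12 arrays with a term for the batch, and p-values were adjusted by Benjamini-Hochberg over all probe sets. At an adjusted p under 0.05, 2 of the 51 member probe sets passed, those of KIF20A and TPX2 that were the dimmer of the gene's pair, against 1.45% of all probe sets (348 of 24016). No brightest probe set passed, and the smallest adjusted p among them was 0.0613, of MCM3. At an unadjusted p under 0.05, 14 of 37 members were higher in pregnancy, 2 of replication (MCM3 and RRM2) and 12 of mitosis and cyclins, against 9.62% of named genes. In 15 of 37, all 3 pregnant values lay above all 3 non-pregnant values, which held for 11.8% of named genes.

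The size of these estimates depended on whether 1 array was in the fit. Without day 14 pregnant replicate 3, the single day 14 pregnant array of batch A, the median difference was 0.11 for mitotic and cyclin genes and 0.11 for replication genes. In that fit the batch term is set by the day 12 pregnant and day 14 non-pregnant arrays alone. The remaining day 14 pregnant arrays had median deviations of -0.029 and -0.21 for mitotic and cyclin genes. Those of the day 14 non-pregnant arrays were lower, at -0.28, -0.49 and -0.51. Within batch A, with 1 pregnant and 2 non-pregnant arrays, the medians were 0.62 and 0.44, and within batch B, with 2 and 1, they were 0.14 and 0.18. When the day 14 non-pregnant group was cut to its single batch B array, an alternative chosen after seeing the data, 0 member probe sets passed in limma and the medians were 0.24 for mitotic and cyclin genes and 0.21 for replication genes; that lone array is assumed to vary like the other groups. The dimmer KIF20A and TPX2 probe sets then had 0.68 and 0.69, with adjusted p of 0.185 and 0.230. With no batch term, 5 member probe sets passed.

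The second comparison, of day 14 with day 12 in non-pregnant ewes, gave the larger differences. The estimate was lower at day 14 for 36 of 37 members, with a median of -0.49, against 4896 of all 9155 named genes and a median of -0.017. The replication genes had a median of -0.27, with 11 of 11 below 0, and the mitotic and cyclin genes a median of -0.68, with 25 of 26 below 0. The dimmer KIF20A probe set was the single member probe set of 51 to pass in limma at an adjusted p under 0.05, against 0.391% of all probe sets; 14 passed with no batch term, and none in a fit of the non-pregnant arrays alone. Of the 37 members, 21 were lower at an unadjusted p under 0.05, 2 of replication and 19 of mitosis and cyclins, where 6.63% of named genes were. The groups did not overlap for 25 members, 4 and 21, against 12.4% of named genes. Within batch B, which held all 3 day 12 arrays and 1 of the day 14 arrays, the medians were -0.22 and -0.61 for replication and for mitotic and cyclin genes. This comparison shares the day 14 non-pregnant arrays with the first, so the pair are not independent of each other.

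Neither remaining comparison gave a called member. Between pregnant and non-pregnant ewes at day 12, 14 members had estimates above 0 and 23 below, where 56.6% of named genes were above 0. The medians were 0.057 for replication genes and -0.10 for mitotic and cyclin genes. No probe set on the array passed in limma, a share of 0%, with 1847 of 24016 at an unadjusted p under 0.05. No member was lower at an unadjusted p under 0.05 on its brightest probe set, against 3.94% of named genes. The dimmer KIF20A probe set was below that p, with -0.38 ± 0.14 (SE, adjusted p = 0.592, limma), and this estimate enters its interaction. The groups did not overlap for 2 members that were lower in pregnancy, PLK1 and NCAPG, against 7.22% of named genes, and for 1 member that was higher, CENPA, against 11.3%. Between day 14 and day 12 in pregnancy, 31 of 37 estimates were below 0, against 5011 of all 9155 named genes, with medians of -0.12 and -0.22. Again 0% of probe sets passed in limma, with 1063 at an unadjusted p under 0.05. KIF2C alone among the members was lower at an unadjusted p under 0.05 (difference -0.38 ± 0.15, SE), against 2.57% of named genes. Without overlap, 2 members were lower at day 14, RRM1 and KIF2C, against 6.3% of named genes. The medians had opposite signs in the batches, 0.18 for replication and 0.21 for mitotic and cyclin genes in batch A, with 1 array a group, and -0.26 and -0.42 in batch B, with 2.

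The pregnancy difference of day 14 minus that of day 12, the interaction in the fit, had a median of 0.14 over the replication genes and 0.45 over the mitotic and cyclin genes. Of 37 estimates, 32 were above 0, against 49.5% of named genes. No member probe set passed in limma, against 0.0874% of all probe sets (21 of 24016). At an unadjusted p under 0.05, 8 members were higher, against 5.23% of named genes. The smallest p of a member probe set was that of the dimmer KIF20A probe set, with a difference of 1.10 ± 0.21 (SE, adjusted p = 0.131).

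**Figure D3:**
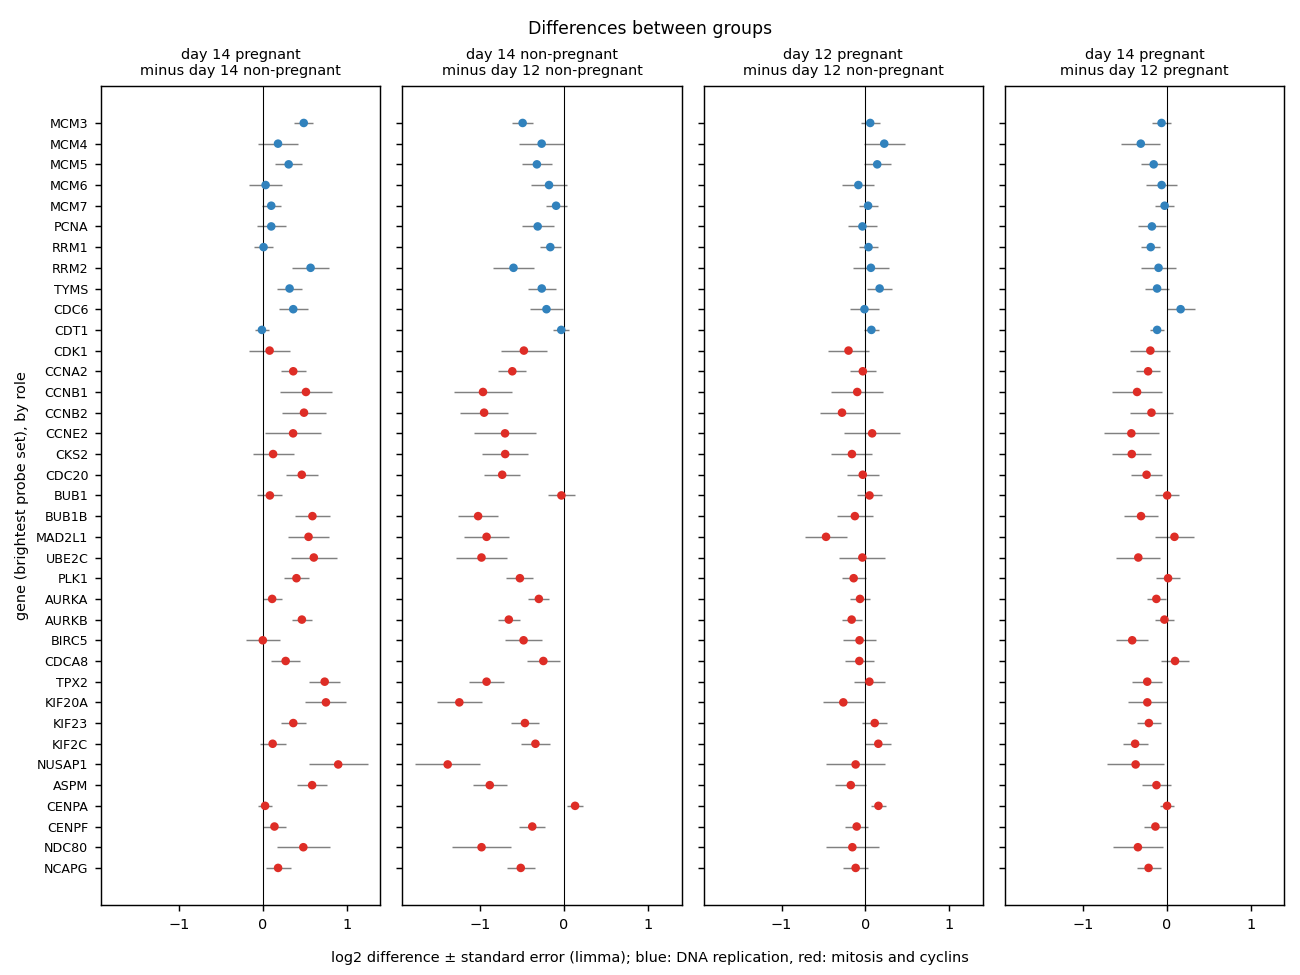
Log2 difference (x axis) of each measured cell division gene (y axis, by role) in the 4 comparisons between groups, as points with bars of 1 standard error from limma; blue marks DNA replication and red mitosis and cyclins. The points lie mostly right of 0 for pregnant against non-pregnant at day 14 (36 of 37) and left of 0 for day 14 against day 12 without pregnancy (36 of 37).

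Among the 11 replication genes, the brightest was PCNA, the clamp that holds DNA polymerase on its template. Its levels were 9.23, 9.62 and 9.34 in day 12 non-pregnant replicates 1 to 3, 9.56, 9.40 and 9.02 in the day 12 pregnant, 9.18, 8.97 and 8.88 in the day 14 non-pregnant, and 9.10, 8.93 and 9.41 in the day 14 pregnant. The day 14 groups overlapped, and their difference was 0.10 ± 0.17 (SE, adjusted p = 0.835, limma), with 0.48 in batch A alone and -0.16 in batch B alone. MCM3, a subunit of the helicase that opens the double strand, was the replication gene with the smallest p in both comparisons that involve the day 14 non-pregnant group. It measured 6.75, 6.83 and 6.74, then 6.95, 6.86 and 6.57, then 6.25, 6.22 and 6.11, and then 6.87, 6.56 and 6.75 in the same order. All 3 day 14 non-pregnant values lay below the other 9. The pregnancy difference at day 14 was 0.49 ± 0.11 (adjusted p = 0.0613, limma), and the difference of day 14 from day 12 without pregnancy was -0.49 ± 0.13 (adjusted p = 0.137); neither passed. A dimmer MCM3 probe set gave -0.09 and 0.03 for the same comparisons.

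The other helicase subunits differed from MCM3 in size. For the pregnancy difference at day 14, MCM5 had 0.31 ± 0.16, MCM4 0.18 ± 0.24, MCM7 0.10 ± 0.11 and MCM6 0.03 ± 0.19. RRM2, the regulated subunit of ribonucleotide reductase, which makes deoxyribonucleotides, had 0.57 ± 0.22 (adjusted p = 0.234, limma), while RRM1, its partner, had 0.01 ± 0.11. RRM2 was dim, with a mean level of 3.28, below 3.59, the 25th percentile of all probe set means. TYMS, thymidylate synthase, had 0.32 ± 0.15. Of the factors that load the helicase at origins, CDC6 had 0.36 ± 0.17 and CDT1 -0.01 ± 0.09. The dimmer CDT1 probe set, with a mean level of 5.33 against 5.73, had 0.25 ± 0.12. Without pregnancy, the differences of day 14 from day 12 on the brightest probe sets ran from -0.60 for RRM2 to -0.034 for CDT1. The dimmer CDT1 probe set had -0.35 ± 0.13 in that comparison.

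The 6 measured genes of CDK1, its cyclins and their regulators had medians of 0.36 for the pregnancy difference at day 14 and -0.70 for day 14 against day 12 without pregnancy. CDK1, the kinase that drives entry into mitosis, measured 5.78, 6.43 and 5.50 in the day 12 non-pregnant ewes, 6.01, 5.54 and 5.65 in the day 12 pregnant, 5.46, 5.17 and 5.84 in the day 14 non-pregnant, and 5.43, 5.39 and 5.79 in the day 14 pregnant. Its groups overlapped in both comparisons, with 0.08 ± 0.25 (adjusted p = 0.917, limma) and -0.48 ± 0.28 (adjusted p = 0.546). CCNB1, the mitotic cyclin B1 that activates CDK1, measured 5.95, 6.53 and 5.68, then 6.20, 6.05 and 5.24, then 5.37, 4.81 and 4.33, and then 5.39, 5.19 and 5.86. Without pregnancy the day 14 values all lay under the day 12 values, with a difference of -0.97 ± 0.34, or 1.96-fold lower (adjusted p = 0.294, limma). The pregnancy difference at day 14 was 0.52 ± 0.31 (adjusted p = 0.462), with values of 1.28 for batch A and -0.08 for batch B.

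CCNA2, cyclin A2 of S phase and early mitosis, had the smallest p of this group in both comparisons. Its levels were 4.68, 4.99 and 4.87, then 4.87, 4.79 and 4.68, then 4.37, 4.08 and 4.05, and then 4.77, 4.24 and 4.68. Day 14 non-pregnant replicates 2 and 3 were the lowest arrays, and day 14 pregnant replicate 2 lay within the range of the non-pregnant. The difference of day 14 from day 12 without pregnancy was -0.62 ± 0.17 (adjusted p = 0.162, limma) and the pregnancy difference at day 14 was 0.36 ± 0.15 (adjusted p = 0.278). CKS2, a small binding partner of CDK1 and the brightest of the group, measured 8.58, 9.01 and 8.41, then 8.71, 8.49 and 8.06, then 8.29, 7.46 and 7.64, and then 7.93, 7.74 and 8.35. Both day 14 groups spanned much the same range, and their difference was 0.12 ± 0.25, with 0.80 in batch A alone and -0.46 in batch B alone. CCNB2 gave -0.95 ± 0.29 and CCNE2, a cyclin of the G1 to S transition, -0.70 ± 0.37 for day 14 against day 12 without pregnancy.

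Genes of the spindle checkpoint and the anaphase-promoting complex had medians of 0.55 and -0.92 in those comparisons over 5 measured members. The 4 other than BUB1 were past an unadjusted p of 0.05 in each (limma), and none passed after adjustment. Of all named genes, 9.62% were higher in the first comparison and 6.63% lower in the second at that p. CDC20, the activator of the anaphase-promoting complex that the checkpoint restrains, was the brightest. It measured 7.04, 7.58 and 6.84 in the day 12 non-pregnant ewes, 7.26, 7.22 and 6.79 in the day 12 pregnant, 6.40, 6.47 and 6.19 in the day 14 non-pregnant, and 6.77, 6.78 and 6.99 in the day 14 pregnant. Every day 14 non-pregnant value lay below the other 9, with a pregnancy difference of 0.47 ± 0.19 (adjusted p = 0.268, limma). BUB1B, the checkpoint protein BubR1, measured 5.21, 5.96 and 5.34, then 5.46, 5.54 and 4.99, then 4.42, 4.13 and 4.59, and then 5.11, 4.85 and 5.11. It had the same order of arrays, with -1.03 ± 0.23 against day 12, or 2.04-fold lower (adjusted p = 0.0984, limma), and 0.59 ± 0.21 for pregnancy at day 14 (adjusted p = 0.202). UBE2C, the ubiquitin-conjugating enzyme of the complex, gave -0.99 ± 0.30 and 0.61 ± 0.27, and MAD2L1, the checkpoint protein Mad2, gave -0.92 ± 0.27 and 0.55 ± 0.25. BUB1, a checkpoint kinase, had -0.03 ± 0.16 and 0.08 ± 0.15 on its brightest probe set and -0.76 ± 0.25 and 0.51 ± 0.23 on the other, both at dim levels.

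The mitotic kinases and the chromosomal passenger complex, with 6 members, had medians of 0.34 for pregnancy at day 14 and -0.51 for day 14 against day 12 without pregnancy. TPX2, which targets Aurora A to spindle microtubules, was the brightest and measured 6.73, 7.34 and 6.74, then 7.12, 7.03 and 6.76, then 6.03, 6.002 and 5.91, and then 6.86, 6.45 and 6.89. The 3 day 14 non-pregnant values lay close together and below all others. On this probe set the pregnancy difference was 0.74 ± 0.18 (adjusted p = 0.0792, limma) and the difference from day 12 was -0.92 ± 0.20 (adjusted p = 0.0927). The dimmer TPX2 probe set measured 6.01, 6.65 and 6.16, then 6.22, 6.39 and 6.10, then 5.47, 5.27 and 5.44, and then 6.16, 6.04 and 6.25. It was higher in pregnancy at day 14 by 0.74 ± 0.16, or 1.67-fold (adjusted p = 0.0471, limma), with 0.89 in batch A alone and 0.63 in batch B alone. When arrays were left out singly, this call held in 2 of 12 cases, those that dropped replicate 1 or replicate 2 of the day 12 non-pregnant group, and the adjusted p ran from 0.0177 to 0.251.

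AURKB, the Aurora B kinase of the passenger complex, measured 5.55, 5.75 and 5.58 in the day 12 non-pregnant, 5.51, 5.56 and 5.32 in the day 12 pregnant, 4.99, 5.09 and 4.80 in the day 14 non-pregnant, and 5.39, 5.33 and 5.57 in the day 14 pregnant ewes. Again the day 14 non-pregnant arrays were the 3 lowest. The differences were 0.47 ± 0.12 for pregnancy at day 14 (adjusted p = 0.0845, limma) and -0.66 ± 0.13 for day 14 against day 12 without pregnancy (adjusted p = 0.0639). A second, dim AURKB probe set gave -0.22 and 0.01. PLK1, the Polo-like kinase of mitotic entry, had 0.40 ± 0.14 and -0.53 ± 0.16. Aurora A itself, AURKA, had 0.11 ± 0.11 and -0.30 ± 0.13, and BIRC5, survivin of the passenger complex, 0.00 ± 0.20 and -0.48 ± 0.22. CDCA8, borealin of the same complex, had 0.27 ± 0.17 and -0.25 ± 0.19 on the brightest probe set, and 0.81 ± 0.32 and -1.34 ± 0.35 on a second of nearly equal mean level, 4.23 against 4.26.

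Kinesins and spindle proteins had the largest median of the 6 role groups in the comparison at day 14 by pregnancy, 0.59 over 5 members, and a median of -0.89 for day 14 against day 12 without pregnancy. KIF20A, a kinesin of the central spindle and of cytokinesis, measured 5.41, 6.16 and 5.26, then 5.64, 5.38 and 4.95, then 4.35, 4.42 and 4.18, and then 5.05, 4.86 and 5.35 on its brightest probe set. Its day 14 non-pregnant values were separate from all others, with 0.75 ± 0.24 (adjusted p = 0.161, limma) and -1.25 ± 0.27, or 2.38-fold lower (adjusted p = 0.0844). The dimmer KIF20A probe set measured 4.46, 4.93 and 4.52, then 4.30, 4.20 and 4.34, then 3.68, 3.57 and 3.85, and then 4.52, 4.19 and 4.46. On it KIF20A was higher in pregnancy at day 14 by 0.72 ± 0.14, or 1.64-fold (adjusted p = 0.0367, limma), by 0.75 in batch A and 0.67 in batch B. Without pregnancy it fell from day 12 to day 14 by 0.98 ± 0.16 on the log2 scale, or 1.98-fold (adjusted p = 0.0299).

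With arrays left out singly, the day 14 pregnancy call of the dimmer KIF20A probe set held in 3 of 12 cases, those that dropped replicate 1 or 2 of the day 12 non-pregnant or replicate 3 of the day 14 non-pregnant group, with adjusted p from 0.0234 to 0.179 in limma. Its call between the days held in 6 of 12, with adjusted p from 0.0266 to 0.0897. It was lost without day 12 non-pregnant replicate 2 or 3, day 14 non-pregnant replicate 1, day 12 pregnant replicate 2 or 3, or day 14 pregnant replicate 3.

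KIF23, a kinesin that bundles microtubules of the midzone, was the brightest of its group and measured 6.58, 6.96 and 6.56, then 6.92, 6.95 and 6.36, then 6.16, 6.16 and 5.97, and then 6.55, 6.48 and 6.56. ASPM, a protein of the spindle poles, measured 4.33, 5.06 and 4.34, then 4.52, 4.40 and 4.19, then 3.63, 3.76 and 3.49, and then 4.21, 4.30 and 4.24. In both genes the day 14 non-pregnant values lay below every other, and the 3 day 14 pregnant values lay close together. The pregnancy difference at day 14 was 0.36 ± 0.15 for KIF23 (adjusted p = 0.269, limma) and 0.59 ± 0.18 for ASPM (adjusted p = 0.145), and ASPM had -0.89 ± 0.20 against day 12. NUSAP1, which binds spindle microtubules, had the estimates of the largest size among the 37 brightest probe sets, 0.90 ± 0.35 and -1.39 ± 0.39, with adjusted p of 0.245 and 0.176. Taken by batch, its pregnancy difference was 1.83 in A and 0.08 in B. KIF2C, a kinesin that depolymerises microtubules at kinetochores, had 0.12 ± 0.16 and -0.34 ± 0.17.

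**Figure D4:**
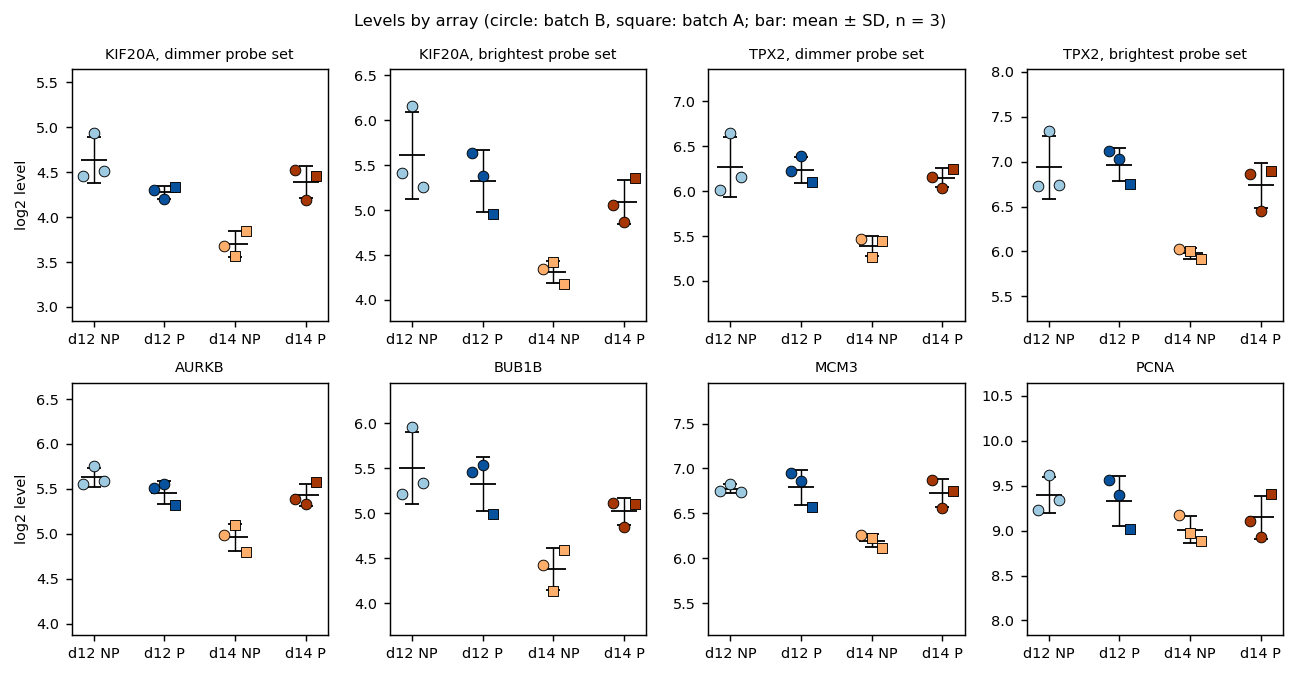
Log2 level (y axis, each panel spanning the same range around its own centre) of KIF20A and TPX2 on both probe sets and of AURKB, BUB1B, MCM3 and PCNA in each array, by group (x axis), with squares for batch A, circles for batch B and a bar for the mean ± SD of 3 ewes. The day 14 non-pregnant arrays lie below all others in every panel except that of PCNA, where they run from 8.88 to 9.18 and overlap the rest.

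Among 4 kinetochore and chromosome proteins the median was 0.16 for pregnancy at day 14 and -0.45 for day 14 against day 12 without pregnancy. CENPF, a large kinetochore protein and the brightest of them, measured 6.17, 6.28 and 6.14, then 6.18, 6.26 and 5.86, then 5.77, 5.94 and 5.78, and then 5.76, 5.95 and 6.18, with 0.14 ± 0.14 by pregnancy at day 14 (adjusted p = 0.683, limma). NDC80, which couples kinetochores to microtubules, measured 5.57, 6.60 and 5.55, then 5.88, 5.99 and 5.14, then 4.95, 4.36 and 4.96, and then 5.46, 4.95 and 5.56. Its day 14 values overlapped at their edge, and the difference between them was 0.48 ± 0.31 (adjusted p = 0.503). NCAPG, a condensin subunit that compacts chromosomes, measured 3.50, 3.57 and 3.51, then 3.48, 3.44 and 3.26, then 3.20, 2.73 and 2.99, and then 3.14, 2.95 and 3.43. For day 14 against day 12 without pregnancy it had -0.52 ± 0.16 (adjusted p = 0.234, limma), with no overlap but at a dim level. CENPA, the centromeric histone, stood apart from the other mitotic genes with 0.13 ± 0.09 in that comparison and a range of 3.58 to 3.86 over all 12 arrays.

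Several probe sets of a gene did not always give the same sign. Among 14 members with more than 1 probe set, a dimmer probe set had the opposite sign to the brightest in 7 for pregnancy at day 14, ASPM, AURKB, CDC6, CDT1, MCM3, MCM6 and TYMS. For day 14 against day 12 without pregnancy this was so in 2 of 14, AURKB and MCM3.

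Other genes of the same processes were read from 3 further lists. Of 42 further replication genes, 36 were measured, 26 of them with an estimate above 0 for pregnancy at day 14 and a median of 0.11, where all named genes had 55.6% above 0. At an unadjusted p under 0.05, 7 were higher and 1 lower. ORC3, a subunit of the origin recognition complex, was the 1 gene of this list to pass, with 6.29, 6.38 and 6.51 in the day 14 non-pregnant and 7.55, 7.30 and 7.18 in the day 14 pregnant ewes. It was higher in pregnant than in non-pregnant ewes at day 14 by 0.93 ± 0.14 (adjusted p = 0.00797, limma). The call held in 12 of 12 cases with an array left out, though not in a fit of the day 14 arrays alone. Its day 12 values, 7.05, 7.40 and 7.10 without pregnancy and 7.01, 7.28 and 7.07 with it, overlapped. Of 51 further mitotic genes, 32 were measured, 30 of them above 0 with a median of 0.28, and none passed in limma. At an unadjusted p under 0.05, 10 of 32 were higher and 0 lower, against the 9.62% and 8.6% of all named genes in those directions. The smallest p-values were those of HMGB2, a chromatin protein (0.57 ± 0.13, adjusted p = 0.0608), CDCA3 (0.54 ± 0.13, adjusted p = 0.0704) and NCAPH, a condensin subunit (0.47 ± 0.12, adjusted p = 0.0756).

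Of 34 genes that control the G1 phase, 22 were measured, with 17 above 0, a median of 0.080 and none past the threshold in limma. At an unadjusted p under 0.05, 3 were higher and 1 lower, near the 9.62% and 8.6% of all named genes. E2F1, a transcription factor of S-phase genes, had 0.50 ± 0.16 (adjusted p = 0.152), and CCND1, cyclin D1, 0.61 ± 0.24 (adjusted p = 0.237). CDKN1A, the inhibitor p21, had -0.97 ± 0.35 (adjusted p = 0.202). It measured 7.23, 7.66 and 7.57 in the day 12 non-pregnant, 7.75, 7.84 and 8.11 in the day 12 pregnant, 8.74, 7.96 and 9.64 in the day 14 non-pregnant, and 7.84, 8.15 and 7.49 in the day 14 pregnant ewes. Day 14 non-pregnant replicate 3 was its highest array, and the day 14 groups overlapped. For day 14 against day 12 without pregnancy the medians of the 3 lists were -0.17, -0.41 and -0.081, in the order replication, mitosis and G1 control.

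Marker lists of the cells in the gland were read in the same arrays. The mean log2 level of 10 luteal steroidogenic markers was 10.55 to 10.68 in the day 12 and day 14 groups other than the day 14 non-pregnant, where it was 10.54, 10.02 and 10.04. For pregnancy at day 14, 8 of those 10 were above 0 with a median of 0.40. At an unadjusted p under 0.05, 5 were higher and 0 lower, against 9.62% and 8.6% of all named genes. STAR, which moves cholesterol into mitochondria for steroid synthesis, was higher by 0.74 (adjusted p = 0.0245, limma). The means of 7 granulosa and follicle cell markers, 5.49 to 5.99 without pregnancy and 5.32 to 5.45 with it, were also separate, although 6 of the 7 were above 0, with a median of 0.071, and none passed in limma, with FST higher (0.54) and INHBA lower (-2.88 ± 0.63, adjusted p = 0.050006) at an unadjusted p under 0.05. The means of the lists that follow overlapped between the day 14 groups. The mean of 16 endothelial markers was 6.48 to 6.93 in the day 14 non-pregnant and 6.83 to 6.93 in the day 14 pregnant ewes, with 11 of 16 above 0. At an unadjusted p under 0.05, 4 were higher and 0 lower. Of the 16, CD34 was higher by 1.09 (adjusted p = 0.00828, limma) and TIE1 by 0.48 (adjusted p = 0.0266), while PECAM1 had -0.40 and CDH5 -0.08. T and NK cell markers had a mean of 4.55 to 4.78 and of 4.71 to 4.88, with 15 of 16 above 0 and none past the threshold in limma, with 1 at an unadjusted p under 0.05. Of 8 macrophage markers, with means of 6.62 to 7.67 and 6.68 to 7.24, 4 were above 0. None passed in limma, with 1 higher and 3 lower at an unadjusted p under 0.05. Of 9 markers of pericytes and smooth muscle, 5 were above 0 with a median of 0.17, and 2 were higher and 1 lower at an unadjusted p under 0.05. Their 1 call, CNN1, went against that median and was lower by 1.54 (adjusted p = 0.000974, limma). Of 8 fibroblast markers 6 were above 0, with a median of 0.22 and none past the threshold, with 1 at an unadjusted p under 0.05.

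For day 14 against day 12 without pregnancy, 7 of 8 fibroblast markers were below 0, with a median of -0.35. None passed in limma, and 5 were lower at an unadjusted p under 0.05, among them the collagen genes COL1A1 (-0.92, adjusted p = 0.0914) and COL1A2 (-0.44, adjusted p = 0.189). Their mean level was 10.04 to 10.10 at day 12 and 9.82 to 10.11 at day 14. Of the steroidogenic markers 8 of 10 were below 0 with a median of -0.29, of the endothelial 9 of 16 with a median of -0.10, of the T and NK cell markers 9 of 16 with a median of -0.060, and of the macrophage markers 4 of 8 with a median of 0.20. Among pericyte and smooth muscle markers 6 of 9 were below 0, and CNN1 rose by 1.38 (adjusted p = 0.00525). The mean 3′ minus 5′ signal of the actin and GAPDH controls, a measure of RNA integrity, was 1.42 to 1.47 in the day 12 non-pregnant and 1.57 to 1.60 in the day 12 pregnant ewes. It was 1.29 to 1.43 in the day 14 non-pregnant and 1.44 to 1.60 in the day 14 pregnant ewes. Pregnant and non-pregnant ranges of this mean did not overlap at either day, though at day 14 they nearly met (1.433 and 1.439). Taken singly, both controls overlapped at day 14. Actin ran from 2.45 to 2.82 without pregnancy and 2.70 to 2.84 with it, and GAPDH from -0.0075 to 0.13 and 0.043 to 0.39. At day 12 actin overlapped (2.80 to 2.98 and 2.87 to 2.96) and GAPDH did not (-0.051 to 0.14 and 0.19 to 0.27). The part of these markers, of RNA integrity and of the batch in the differences of the cell division genes was not tested.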

How the data were processed

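Total RNA of 12 snap-frozen corpora lutea was extracted with Trizol and converted to labelled cDNA for the array, as the labels' protocols state. The deposited values are log2 signals per probe set, made by the authors: the submitters' processing notes name RMA and Affymetrix Expression Console, with a version not given in the sources used here. This step makes the arrays' distributions alike, so a shift of all genes would not be seen. No further normalization was applied. Groups came from the source labels. Of 24128 probe sets, 112 controls were left out. Of the rest, 13292 had 1 symbol, 86 several and 10638 none; symbols come from GEO's platform annotation. limma 3.58.1 (R 4.3.3) was fitted to 12 arrays with group means and an additive batch term (7 residual degrees of freedom), two-sided, with Benjamini-Hochberg adjustment over 24016 probe sets and a threshold of 0.05. The fit was tested on simulated data with independent noise and no batch effect, which cannot test how well the batch term corrects these arrays. The 3 ewes of a group are separate animals, and their number limits the precision.

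The members and lists were chosen with earlier results of these data known. Values in every array are given, in each role group, for the member with the highest level and the members with the smallest p for day 14 pregnant minus non-pregnant and for non-pregnant day 14 minus day 12, and for PCNA, CDK1 and CCNB1. From the further lists, genes past the threshold were named, or else the 3 with the smallest p for pregnancy at day 14. Other genes, and the second probe sets of TPX2, KIF20A, BUB1, CDCA8 and CDT1, were named after their values were seen. Alternatives were the batch term, samples fitted, single arrays left out, dim probe sets, centring, array weights, the probe set used and within-batch values.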

Additional observations from a re-analysis of the deposited data

How the results depend on the processing

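The medians of the cell division genes for pregnancy at day 14 and for day 14 against day 12 without pregnancy kept their sign under every alternative run, while the counts of calls did not keep their size. For pregnancy at day 14, the member probe sets called were 5 with no batch term, 5 with the batch as a random block, and 0 in a fit of the compared groups alone, with array weights, or with the day 14 non-pregnant group cut to its batch B array (0 to 4 with single arrays left out). Those of all probe sets were 531 with no batch term, 24 in the compared groups alone, 141 with array weights and 174 after that cut (88 to 510). For day 14 against day 12 without pregnancy, the member calls were 14, 16, 0, 0 and 0 under the same 5 alternatives (0 to 2), and the calls of all probe sets were 415, 462 and 1 under the first 3 and 159 after the cut (28 to 254). The comparison of pregnancy at day 12 had 1 call in the compared groups alone (0 to 5), and the interaction had 50, 50 and 59 with no batch term, the random block and the cut group (1 to 76).

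Medians for mitotic and cyclin genes and for replication genes ran, with single arrays left out, from 0.11 to 0.51 and 0.11 to 0.29 for pregnancy at day 14, from -0.76 to -0.52 and -0.34 to -0.15 for day 14 against day 12 without pregnancy, from -0.20 to 0.066 and -0.015 to 0.13 for pregnancy at day 12, from -0.39 to -0.10 and -0.22 to -0.055 for the days in pregnancy, and from 0.15 to 0.61 and -0.064 to 0.22 for the interaction. Within batch A they were 0.62 and 0.44 for pregnancy at day 14 and 0.21 and 0.18 for the days in pregnancy. Within batch B they were 0.14 for the mitotic and cyclin genes for pregnancy at day 14, -0.26 for the replication genes for the days in pregnancy, and 0.13 and -0.046 for the interaction.

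Among the members, single genes were followed with arrays left out only where their values in every array are given. The other members were not examined in this way. Of those followed, the estimate for pregnancy at day 14 changed sign in 6 genes when single arrays were left out. Its range was -0.11 to 0.80 for CCNB1, -0.11 to 0.23 for CDK1, -0.067 to 0.23 for CENPF, -0.39 to 0.45 for CKS2, -0.11 to 0.38 for NCAPG and -0.23 to 0.22 for PCNA. Each low end came from dropping day 14 pregnant replicate 3, and CDK1 was also below 0 (-0.080) when replicate 2 of the day 14 non-pregnant group was dropped. Without day 14 pregnant replicate 3, batch A holds no day 14 pregnant array, and the batch term is set by other groups. These estimates therefore include that term and are not plain differences of the remaining levels, so a changed sign need not mean reversed levels. In the cut group CKS2 had -0.28, NCAPG -0.059 and PCNA -0.016. None of these genes had passed the threshold. The cause was not tested. No paired analysis was made because the titles name a different ewe for each array. Replicate numbers follow accession order and pair no samples. With 3 ewes a group and 7 residual degrees of freedom, an adjusted p above 0.05 does not show that levels were alike, and 14 of 37 members lay below the median level of all probe sets.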

Other observations

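Genes outside the lists whose levels followed those of the cell division genes were found by Pearson's r with the members' mean deviation over the 12 arrays, among 8742 genes, with unnamed loci left out. The points share arrays, groups and batches, so r is a description. The 10 highest were DCK (0.962), SKA1 (0.954), POLH (0.949), KNSTRN (0.943), SPAG5 (0.935), TSPO (0.934), PCLAF (0.918), FAM241B (0.911), CENPX (0.900) and VRK1 (0.894). Without day 12 non-pregnant replicate 2 and day 14 non-pregnant replicate 3, the arrays farthest from the median, r over 10 arrays was 0.927 for DCK, 0.911 for SKA1 and 0.815 for VRK1. DCK, deoxycytidine kinase of nucleotide salvage, had a pregnancy difference of 0.52 at day 14 (adjusted p = 0.0928, limma) and -0.78 for day 14 against day 12 without pregnancy (adjusted p = 0.0572). SKA1, a protein of the kinetochore, had 0.99 (adjusted p = 0.0696) and -1.22 (adjusted p = 0.0823), and PCLAF, which binds PCNA, had 1.21 (adjusted p = 0.0865) and -1.62 (adjusted p = 0.0784). None of the 10 passed the threshold in either comparison. The genes were picked for following the members over these same arrays, so group differences like the members' come with that choice and add no separate support.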
